A study of Nothobranchius furzeri with 8 samples.

Results

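Blood-derived and inflammatory cells carry a characteristic set of miRNAs, and 6 families of that set were followed in the ageing brain of the turquoise killifish, Nothobranchius furzeri, an annual fish with a short natural lifespan. The families were mir-223, mir-142, mir-150, mir-21, mir-146 and mir-155, chosen by name from the 324 features of the deposited counts (235 named families and 89 predicted miRNAs). Small RNA had been sequenced from the brain of males of the strain MZM-04/10p, with 4 libraries at 26 weeks and 4 at 6 weeks of age, numbered I to IV at each age. No treatment or genotype was given in the labels beyond the strain, and both ages share sex, strain and tissue. The older libraries have 22 in their titles where the age label gives 26 weeks, and the age label was followed. Whether each library is a separate fish is not in the labels, so p-values reflect the spread among these samples only, and that spread may be technical.

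A miRNA guides an Argonaute protein to partly complementary messenger RNAs, which are then degraded or translated less. In mouse and human, mir-142 is made almost throughout the haematopoietic lineage, microglia included, mir-223 is typical of granulocytes and other myeloid cells, and mir-150 of mature lymphocytes. The remaining families mark cell state more than lineage: mir-146 and mir-155 are induced by inflammatory signals in mouse and human leucocytes, while mir-21 is made by many cell types, astrocytes and vessel cells among them. Microglia are the resident macrophages of the brain, and a whole brain also holds the blood in its vessels. In a bulk library, fewer cells of a type and less miRNA per cell cannot be told apart. Counts were given per family, without arms or paralogues, so which mature strand was counted is unknown.

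Library totals ran from 3347810 to 5715409 counts at 26 weeks and from 2992917 to 4151620 at 6 weeks. Levels are CPM, counts per 1000000 counts of the library size after TMM scaling, which sets the bulk of features level between libraries. The factors were 0.861 to 0.882 in the 26-week libraries II, III and IV and 1.02 to 1.16 in the other 5 libraries, so the choice of scaling bears on the age comparison. Families enriched in neurons, mir-124, mir-9 and mir-128, were abundant at both ages and summed to 109000 to 159500 CPM of unscaled totals at 26 weeks and 134300 to 157300 CPM at 6 weeks. Most of that sum was mir-9 and mir-128, and mir-124 itself was higher in the older libraries, with 7454 ± 2290 CPM against 3928 ± 525 CPM in the younger ones (SD, n = 4 per age, TMM-scaled, 1.90-fold, edgeR adjusted p = 0.0167). The more abundant mir-9 and mir-128 did not pass. Their log2 fold changes at 26 weeks over 6 weeks were 0.05 ± 0.12 and -0.17 ± 0.09 (SE, edgeR adjusted p = 0.845 and 0.25).

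All 6 families were counted in all 8 libraries and passed the filter on low counts. They spanned a wide range of levels, and ligation preferences of the library kit make levels of different miRNAs only roughly comparable. By mean CPM over the 8 libraries, mir-21 ranked 13 among 212 tested features with 16710 CPM. The families mir-146 (256.8 CPM) and mir-142 (256 CPM) followed at ranks 80 and 81. Their means were alike only over both ages together, since mir-142 was below mir-146 in each younger library and above it in each older one. In the 26-week library IV they were within counting error of each other (389.2 and 375.5 CPM). Next came mir-223 (47.16 CPM) and mir-150 (44.59 CPM) at ranks 112 and 114, within each other's spread at each age. The scarcest was mir-155, at rank 204 with 3.617 CPM. Because mir-21 held 94.5% to 97.3% of the summed level of the 6 families at 26 weeks and 96.7% to 97.6% at 6 weeks, their sum describes mir-21 rather than leucocyte families in general.

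At 26 weeks against 6 weeks, the 3 lineage families mir-223, mir-142 and mir-150 were higher, between 1.68-fold and 2.09-fold, and in none of them did the ages overlap. For mir-150 the gap between the ages was within counting error. The 3 families linked to inflammatory state or broad expression, mir-21, mir-146 and mir-155, did not pass the test. This split of the 6 was not part of the plan and falls along the calls themselves. It serves as description, and a difference between the classes was not tested. In the quasi-likelihood test of edgeR, adjusted by Benjamini-Hochberg over all 212 tested features, 3 of 6 families rose and 0 fell, while 10.4% of all tested features rose and 3.77% fell. At an unadjusted p under 0.05 the counts of the 6 were also 3 higher and 0 lower, as they were with DESeq2 and with limma-voom after adjustment. That unadjusted cut was passed by 62 of all 212 tested features, in either direction. With limma-voom after adjustment, 23 of all 212 tested features rose and 8 fell. The median log2 fold change was 0.60 over the 6 families and -0.06 over all tested features. The ages did not overlap, with 26 weeks higher, in 3 of the 6 families and in 14.2% of all tested features, and with 26 weeks lower in 0 of the 6 and in 7.55% of all. The same 3 rose with the library number as a block (16.5% of all features rose and 11.3% fell), with DESeq2 (13.2% and 4.72%) and without both libraries numbered I (14.2% and 9.43%).

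**Figure D1:**
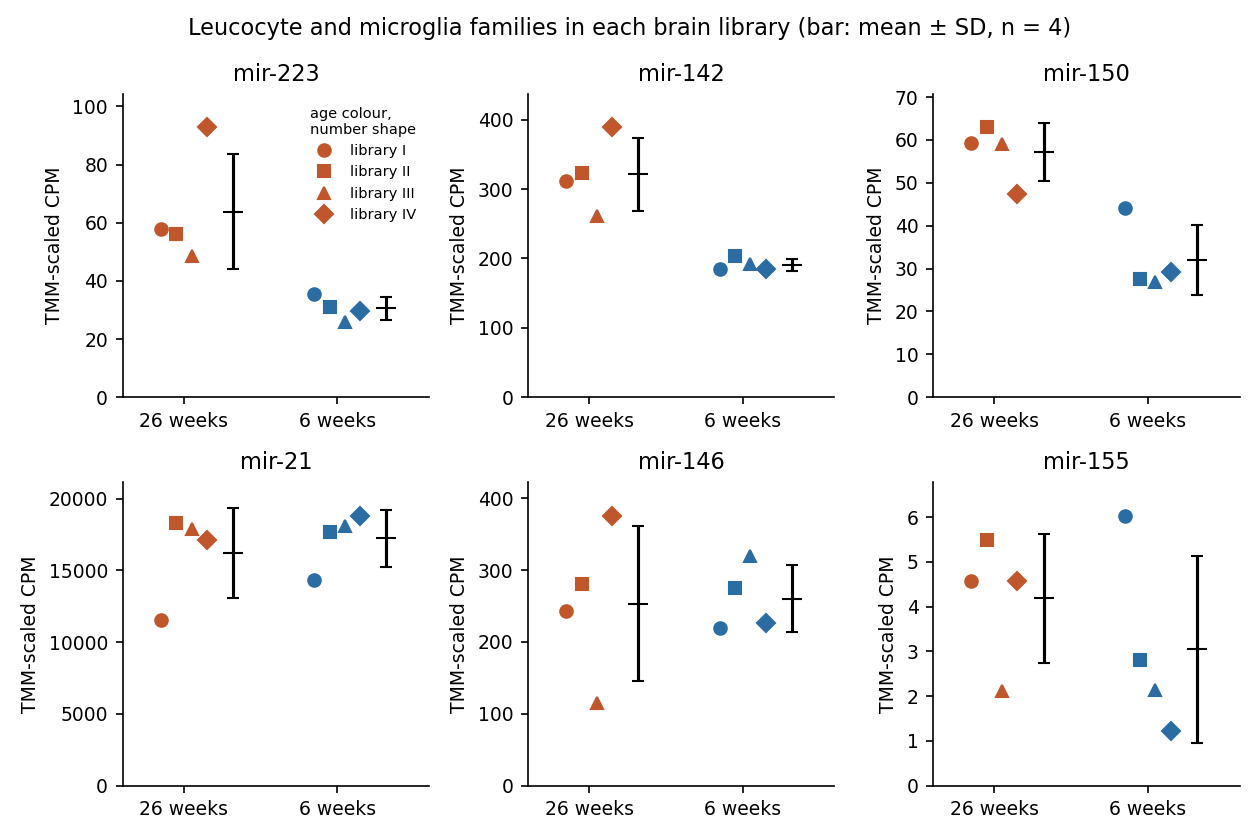
TMM-scaled CPM of each family in each library, with 26 weeks in orange at the left and 6 weeks in blue at the right; shapes mark the library number, and the black bar is the mean ± SD of 4 libraries. The ages are apart for mir-223 and mir-142, narrowly apart for mir-150, and overlap for mir-21, mir-146 and mir-155.

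The largest change was that of mir-223, a miRNA that restrains the expansion and activation of granulocytes in mouse. It stood at 57.71, 56.06, 48.47 and 92.85 CPM in the 26-week libraries I to IV, against 35.61, 30.99, 25.78 and 29.79 CPM in the 6-week libraries I to IV. The lowest 26-week library, III, lay above the highest 6-week library, I, and the 26-week library IV stood well above the rest of its age. On average this was 63.77 ± 19.8 CPM at 26 weeks and 30.54 ± 4.05 CPM at 6 weeks (SD, n = 4 per age), and the log2 fold change was 1.06 ± 0.25 (SE, edgeR adjusted p = 0.0205), with a 95% interval of 1.40-fold to 3.11-fold. Compared within library numbers, the fold ran from 1.62 for number I to 3.12 for number IV. The counts behind these levels were 215 to 366 per library at 26 weeks and 97 to 124 at 6 weeks, so counting error alone was about 6.07% and 9.53%, against a spread between libraries of 31.0% and 13.3%.

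For mir-142, the pan-haematopoietic family, levels were 311.4, 323.4, 261.4 and 389.2 CPM in the 26-week libraries I to IV, against 184.1, 203.1, 191.3 and 184.6 CPM in the 6-week libraries. The younger libraries were close to each other, with a coefficient of variation of 4.65%, and the older ones were more spread, at 16.4%, where counting error gives 3.80% and 2.69%. As for mir-223, the 26-week library III was the lowest and IV the highest of its age. Mean levels were 321.3 ± 52.6 CPM in the 26-week libraries and 190.8 ± 8.86 CPM in the 6-week ones (SD, n = 4 each), and the log2 fold change was 0.75 ± 0.17 (SE, edgeR adjusted p = 0.0179, 95% interval 1.29-fold to 2.21-fold). Every pair of libraries with the same number had the higher level at 26 weeks, by 1.37-fold in III to 2.11-fold in IV.

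The lymphocyte family mir-150, which limits the transcription factor Myb in mouse B and T cells, was at 59.32, 62.97, 59.05 and 47.44 CPM in the 26-week libraries I to IV and at 44.23, 27.61, 26.96 and 29.17 CPM in the 6-week libraries. Here the order within the ages was another one: the 26-week library IV, highest for mir-223 and mir-142, was the lowest, and the 6-week library I stood above the rest of its age. The gap between the ages was narrow, since the lowest older and the highest younger library were 47.44 and 44.23 CPM. Their exact Poisson 95% intervals, 40.9 to 54.7 CPM and 37.5 to 51.8 CPM, overlapped, so that gap was within counting error. Means were 57.2 ± 6.74 CPM at 26 weeks and 31.99 ± 8.21 CPM at 6 weeks (SD, n = 4 per age), with a log2 fold change of 0.84 ± 0.23 (SE, edgeR adjusted p = 0.0394) and a 95% interval of 1.25-fold to 2.57-fold. Leaving out 1 younger library at a time, the edgeR adjusted p of mir-150 was 0.0693 without II, 0.0716 without III and 0.0646 without IV, with log2 fold changes of 0.91, 0.81 and 0.94, so its call was lost in each case.

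The most abundant of the families, mir-21, a repressor of Pdcd4 in mammals, was at 11530, 18260, 17870 and 17140 CPM in the 26-week libraries I to IV, against 14290, 17690, 18120 and 18800 CPM in the 6-week libraries. The library numbered I was the lowest at each age, and the remaining libraries of both ages lay close together. Means were 16200 ± 3150 CPM at 26 weeks and 17230 ± 2010 CPM at 6 weeks (SD, n = 4 per age). The log2 fold change was -0.09 ± 0.16 (SE, edgeR adjusted p = 0.763), and its 95% interval ran from 0.731-fold to 1.21-fold, so a doubling like that of mir-223 lay outside it. Without both libraries numbered I, it was -0.05 ± 0.11 (edgeR adjusted p = 0.789).

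As a share of all counts, with no scaling factor, mir-21 took 1.28%, 1.57%, 1.58% and 1.49% in the 26-week libraries I to IV, against 1.66%, 1.93%, 1.85% and 1.98% in the 6-week libraries. On that scale the ages did not overlap, with 26 weeks lower, as in 13.7% of all tested features. The edgeR test on total counts gave -0.33 ± 0.09 (SE, adjusted p = 0.0543). The median of all features was then -0.29, and the change of mir-21 relative to that median was -0.04, against -0.03 with TMM factors. A scaling factor shifts all features by about the same amount, so these values are bound to be alike. They do not tell which scaling is right for mir-21.

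The family mir-146, which is induced through NF-kB and lowers Traf6 and Irak1 in mouse and human, varied within the older group. Its levels were 242.4, 279.9, 115.6 and 375.5 CPM in the 26-week libraries I to IV, against 220.0, 275.2, 319.1 and 226.6 CPM in the 6-week libraries. The 26-week library III held less than any other library and IV more than any other, 3.25-fold apart, whereas the younger libraries stayed within 1.45-fold. The counts of those older libraries, 546 and 1480, leave little room for counting error, since exact Poisson 95% intervals for library III (106 to 126 CPM) and library IV (357 to 395 CPM) are far apart. Means were 253.3 ± 108 CPM at 26 weeks and 260.2 ± 46.3 CPM at 6 weeks (SD, n = 4 per age), and the log2 fold change was -0.04 ± 0.33 (SE, edgeR adjusted p = 0.948, 95% interval 0.583-fold to 1.62-fold). Without the 26-week library III it turned to 0.28 ± 0.21 (edgeR adjusted p = 0.478). A change of mir-146 anywhere within 0.583-fold to 1.62-fold remains compatible with the 8 libraries.

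The inflammatory family mir-155, induced in activated macrophages and lymphocytes of mouse and human, was near the limit of the depth. It was counted 17, 27, 10 and 18 times in the 26-week libraries I to IV and 21, 10, 9 and 4 times in the 6-week libraries, or 4.563, 5.484, 2.117 and 4.566 CPM against 6.031, 2.817, 2.129 and 1.228 CPM. The ages overlapped throughout, and the highest value of all was that of a younger library, I. For the 4 counts of the 6-week library IV the exact Poisson 95% interval was 1.09 to 10.2 counts. The log2 fold change was 0.45 ± 0.48 (SE, edgeR adjusted p = 0.584), with an interval from 0.641-fold to 2.91-fold that holds both no change and the folds of the lineage families. With single libraries left out, the value was largest without the 6-week library I, at 1.01 ± 0.45 (edgeR adjusted p = 0.212). It was smallest without the 6-week library IV, at 0.34 ± 0.47 (edgeR adjusted p = 0.71).

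**Figure D2:**
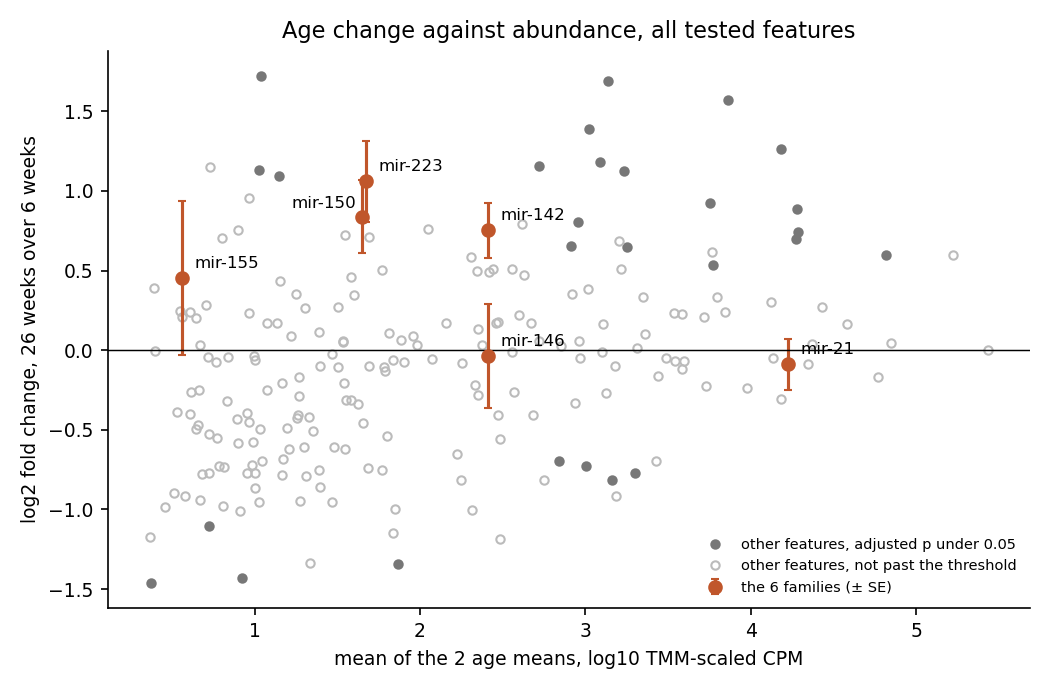
Log2 fold change at 26 weeks over 6 weeks (vertical axis) against the mean level (log10 TMM-scaled CPM, horizontal axis) for all 212 tested features; grey points are other features, filled where the edgeR adjusted p was under 0.05, and the orange points are the 6 families with their SE. The families mir-223, mir-150 and mir-142 sit at 1.06, 0.84 and 0.75, and mir-21 and mir-146 sit near 0.

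The calls depended on scaling and on how depth was treated. With upper-quartile factors, mir-223 and mir-142 passed (edgeR adjusted p = 0.0360 and 0.0437) and mir-150 did not (adjusted p = 0.0980), while 7.08% of all features rose and 5.19% fell. With total counts only, 0 of the 6 passed, at edgeR adjusted p = 0.0702 for mir-223, 0.0715 for mir-142 and 0.144 for mir-150, although 7.08% of all features still rose and 5.66% fell. At an unadjusted p under 0.05, 3 were higher and 1, mir-21, was lower, while 69 of all 212 features passed in either direction. These scalings moved the median log2 change of all features to -0.24 and -0.29. Relative to it, mir-223 stood at 1.12, 1.10 and 1.12 with TMM, upper-quartile and total-count scaling, mir-142 at 0.81, 0.81 and 0.82, and mir-150 at 0.90, 0.92 and 0.90. A scaling factor shifts all features by about the same amount, so these differences are bound to stay alike and say nothing on robustness to scaling. The ages did not overlap in CPM of unscaled totals for mir-223 and mir-142, higher at 26 weeks in 2 of 6 families and in 8.96% of all tested features, whereas they overlapped for mir-150.

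Depth moved with age, since 3 of the 4 older libraries were deeper than all of the younger ones. With the log2 total as a covariate, the log2 fold changes of mir-223, mir-142 and mir-150 were 1.27 ± 0.34, 0.78 ± 0.23 and 0.94 ± 0.31 (SE). The edgeR adjusted p values were then 0.0933, 0.102 and 0.138, so 0 of the 6 passed, and 1.89% of all features rose under that fit. At an unadjusted p under 0.05, 3 of the 6 were higher and 1 was lower, while 40 of all 212 features passed in either direction. The lower family was mir-21, with a log2 fold change of -0.45 ± 0.16 (SE, edgeR adjusted p = 0.179). With the covariate and the library number as a block together, the values were smaller, at 0.80 ± 0.47 for mir-223, 0.68 ± 0.43 for mir-142 and 0.43 ± 0.42 for mir-150 (SE, edgeR adjusted p = 0.670, 0.689 and 0.803), and that of mir-21 was -0.32 ± 0.20. In that fit 0 of the 6 and 24 of all 212 tested features had an unadjusted p under 0.05. Age and depth cannot be told apart fully in these libraries.

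**Figure D3:**
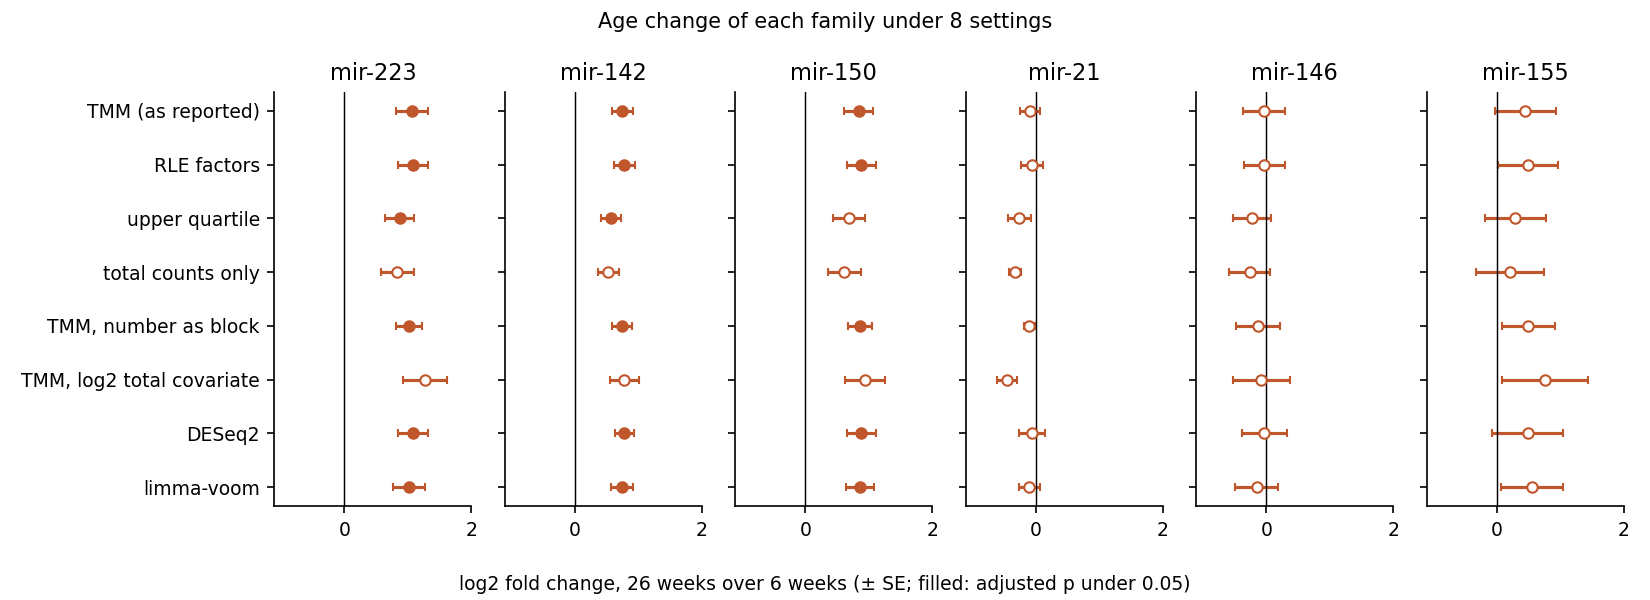
Log2 fold change at 26 weeks over 6 weeks (horizontal axis, ± SE) of each family under 8 settings (rows), filled where the adjusted p was under 0.05. The values of mir-223, mir-142 and mir-150 are above 0 in every row shown, and their points are open with total counts only and with the log2 total as a covariate; mir-150 is also open with upper-quartile factors.

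Ratios of counts within a library are free of scaling, so the lineage families were also set against the families without a call. The ratios come from the same counts as the calls. A higher ratio of a called family over an uncalled one is therefore no separate support for its rise. There are 15 pairs among the 6 families, each written here with the family of the larger rise on top. In 4 pairs the ages did not overlap, and these were the pairs of mir-223 or mir-142 over mir-146 or mir-21. Among all pairs of tested features 19.0% did not overlap, so the 4 of 15 are given as description only. The ratio of mir-223 to mir-21 had a log2 value of -7.64, -8.35, -8.52 and -7.53 in the 26-week libraries I to IV, against -8.64, -9.15, -9.45 and -9.29 in the 6-week libraries. The ages were separate but close, since the 26-week library III was next to the 6-week library I.

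The ratio of mir-223 to mir-21 was 2.18-fold higher at 26 weeks and that of mir-142 to mir-21 was 1.79-fold higher. The ratio of mir-223 to mir-146 was 2.24-fold higher and that of mir-142 to mir-146 was 1.84-fold higher. The log2 ratio of mir-142 to mir-146 was 0.36, 0.21, 1.18 and 0.05 in the 26-week libraries I to IV, against -0.26, -0.44, -0.74 and -0.30 in the 6-week libraries. In words, mir-142 was counted more often than mir-146 in each older library and less often in each younger one. The 26-week library IV was close to even, with 1534 and 1480 counts, a difference within counting error. Each of these 4 pairs had an exact two-sided permutation p of 0.0286, the smallest that 4 against 4 libraries can give, and 0.107 after Benjamini-Hochberg adjustment over the 15 pairs, so 0 of 15 passed. The count of pairs without overlap was 7 without the 6-week library I and 6 without the 26-week library IV, and 4 without any other single library. With fewer libraries overlap is less likely, and the share over all pairs of tested features was not computed there.

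Among the lineage families themselves no ratio separated the ages. The log2 ratio of mir-223 to mir-142 was -2.36 ± 0.20 at 26 weeks and -2.65 ± 0.22 at 6 weeks (SD, n = 4 per age, exact permutation p = 0.114, adjusted 0.245). That of mir-150 to mir-142 was -2.48 ± 0.38 at 26 weeks and -2.60 ± 0.38 at 6 weeks (SD, n = 4 per age, exact permutation p = 0.657, adjusted 0.821). For mir-223 to mir-150 the values were 0.12 ± 0.57 at 26 weeks and -0.05 ± 0.20 at 6 weeks (SD, n = 4 per age, exact permutation p = 0.8, adjusted 0.918). The wide older group in that last ratio goes back to the 26-week library IV, which held the most mir-223 and the least mir-150 of its age.

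**Figure D4:**
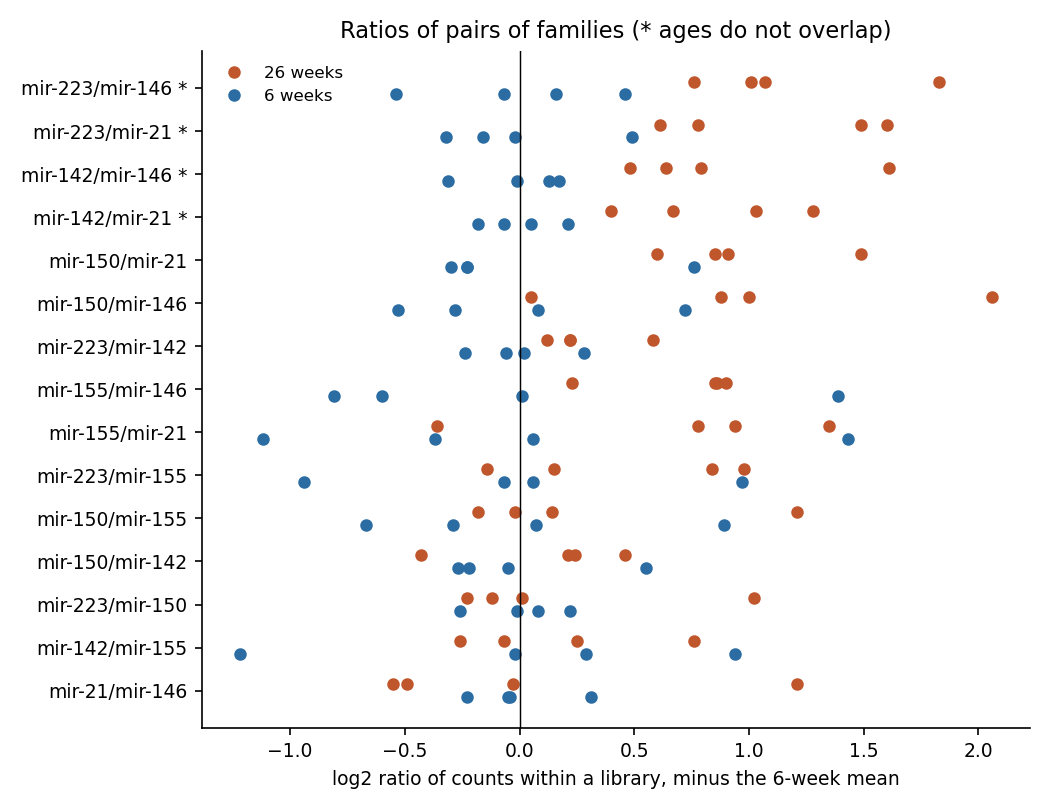
Log2 ratio of the counts of 2 families within a library, with the 6-week mean of the pair subtracted (horizontal axis), for the 15 pairs (rows); orange points are the 26-week libraries and blue points the 6-week libraries. In the 4 rows marked with a star, mir-223 or mir-142 over mir-146 or mir-21, all older libraries lie to the right of all younger ones.

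The make-up of the 5 scarcer families, with mir-21 left out, shows the same values in another form. At 26 weeks mir-142 made up 46.1%, 44.4%, 53.7% and 42.8% of their counts in libraries I to IV, against 37.6%, 37.6%, 33.8% and 39.2% at 6 weeks. The share of mir-146 was 35.9%, 38.5%, 23.7% and 41.3% at 26 weeks and 44.9%, 51.0%, 56.4% and 48.1% at 6 weeks. The first place thus went to mir-142 in every older library and to mir-146 in every younger one. Shares of mir-223 were 9.11 ± 1.19% at 26 weeks and 5.97 ± 1.13% at 6 weeks, those of mir-150 were 8.70 ± 2.83% at 26 weeks and 6.28 ± 1.93% at 6 weeks, and those of mir-155 were 0.592 ± 0.148% at 26 weeks and 0.598 ± 0.436% at 6 weeks (SD, n = 4 per age). The summed level of these 5 families was 699.8 ± 174 CPM at 26 weeks and 516.6 ± 43.4 CPM at 6 weeks (SD, n = 4 per age), and the ages overlapped, because the 26-week library III (486.6 CPM) held less than 3 of the younger libraries.

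**Figure D5:**
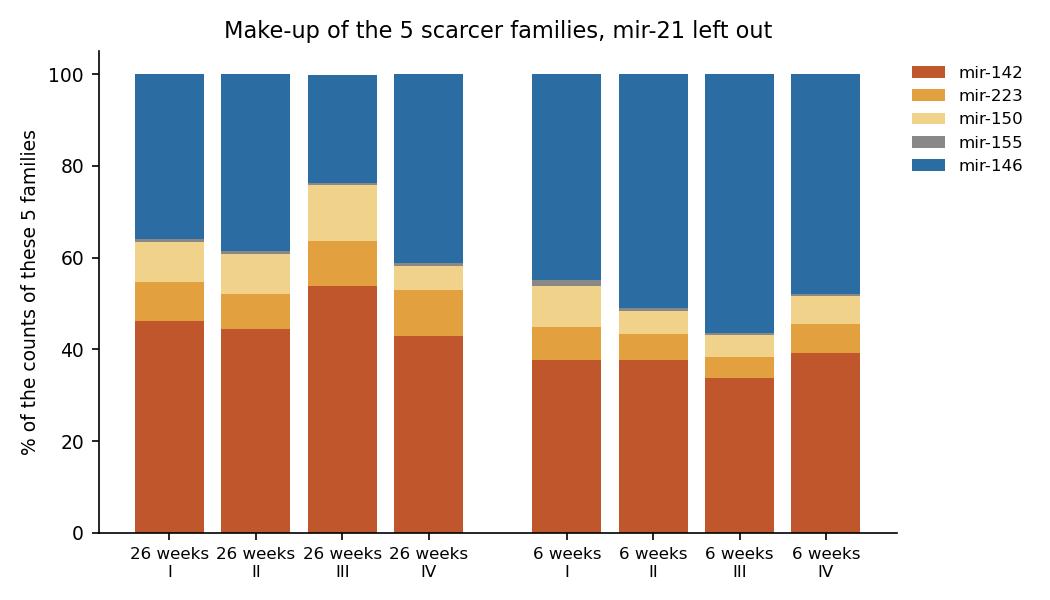
Share of each family in the counts of mir-142, mir-223, mir-150, mir-155 and mir-146 (stacked bars, percent of their sum) in each library, 26 weeks at the left and 6 weeks at the right. The blue segment, mir-146, spans 23.7% to 41.3% at 26 weeks and 44.9% to 56.4% at 6 weeks.

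Within the older group, libraries III and IV stood at opposite ends for several families. Of the 26-week libraries, III had the lowest and IV the highest level of mir-223, mir-142 and mir-146, and III was also the lowest for mir-155. For mir-150 library II was the highest and IV the lowest. No such shared order was present at 6 weeks, where library III was lowest for mir-223 and mir-150 and highest for mir-146.

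The families closest to each of these 6 were found by the root mean square difference of log2 CPM over the 8 libraries, each family centred on its own mean, among 172 other named families. Families with a like age change come close by this measure, which says nothing on shared cells or control. The family closest to mir-223 was mir-338, an oligodendrocyte family (difference 0.20, with a median of 0.67 over all families), followed by mir-142 (0.23). For mir-142 they were mir-148 and mir-26 (0.19 each, median 0.52), and for mir-150 mir-24 and mir-592 (0.26 each, median 0.59). The profile of mir-21 was close to that of mir-456 (0.09) and of mir-181 (0.13, median 0.43), which were also lowest in library I at each age. No family came as close to mir-146, where mir-786 (0.32) and a feature named mir-BART15 (0.34, median 0.61) led, or to mir-155, where mir-194 (0.48) and mir-24 (0.50, median 0.73) did. Of the 15 pairs among the 6 families, mir-142 and mir-223 were the most alike at 0.23, and mir-21 and mir-155 the least at 0.79. Counts of mir-155 were only 4 to 27 per library. Its counting error alone, about 23.6% at 26 weeks and 30.2% at 6 weeks, widens its differences from every family.

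Blood and vessel families are given beside the leucocyte families. Of the erythrocyte pair, mir-451 was at 584.3, 830.6, 762.8 and 698.2 CPM in the 26-week libraries I to IV, against 309.3, 372.1, 321.9 and 289.6 CPM in the 6-week libraries, a log2 fold change of 1.15 ± 0.17 (SE, edgeR adjusted p = 0.00326). Its partner mir-144 was at 532.6 ± 48.5 CPM in older and 511.5 ± 72.5 CPM in younger libraries (SD, n = 4 per age), with a log2 fold change of 0.06 ± 0.16 (edgeR adjusted p = 0.845). The 2 erythrocyte families therefore differed in their values, and their sum was 1109 to 1282 CPM of unscaled totals at 26 weeks and 778.5 to 1062 CPM at 6 weeks.

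Of 3 vessel wall families, 0 passed by edgeR, 2 had an unadjusted p under 0.05, 1 passed by DESeq2 and by limma-voom, and 2 passed with the library number as a block. The unadjusted cut was passed by 62 of all 212 tested features, in either direction. The endothelial mir-126 had a log2 fold change of 0.61 ± 0.24 (SE, edgeR adjusted p = 0.134), and the smooth muscle pair mir-145 and mir-143 had 0.58 ± 0.18 (adjusted p = 0.0587) and 0.24 ± 0.18 (adjusted p = 0.400). Their sum was 11870 to 16370 CPM of unscaled totals at 26 weeks and 10500 to 13440 CPM at 6 weeks. On the same scale, the myelinating glia markers mir-219 and mir-338 summed to 16460 to 25580 CPM at 26 weeks and 8979 to 12040 CPM at 6 weeks. Muscle families (3 of 4 listed were in the counts) summed to 1036 to 1785 CPM at 26 weeks and 1166 to 1535 CPM at 6 weeks, and liver and gut families (3 of 4) to 65.82 to 174.1 CPM at 26 weeks and 102.4 to 139.7 CPM at 6 weeks. None of the measured marker families was at 0 in all libraries. The part of red cells, vessels and other cell types in the higher TMM-scaled levels of mir-223, mir-142 and mir-150 was not tested.

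A wider list held 37 families with a known role in immune cells of mouse or human, most of them also made by other brain cells, of which 29 were tested. Of these, 7 rose, 0 fell and 22 did not pass, beside 10.4% of all features that rose, and the median log2 fold change was 0.17. None was lower at an unadjusted p under 0.05 or by DESeq2 or limma-voom, whereas with total counts 6 rose and 1 fell. The 7 were mir-29, mir-22, mir-23, mir-187, mir-27, mir-132 and the neuronal mir-124, in order of p. The largest change was that of mir-29, which limits the interferon-gamma response of mouse T cells, with 2078 ± 280.0 CPM in the older libraries and 643.2 ± 61.2 CPM in the younger ones (SD, n = 4 per age, log2 fold change 1.69 ± 0.15 (SE), edgeR adjusted p = 2.14e-04). A regulator of cytokine output in human monocytes, mir-187, had 2347 ± 736 CPM at 26 weeks and 1075 ± 62.8 CPM at 6 weeks (SD, n = 4 per age). The clustered mir-23 and mir-27, which restrain T helper cell differentiation in mouse, rose 1.75-fold and 1.85-fold, mir-22 rose 1.68-fold, and mir-132, induced by both neuronal activity and Toll-like receptor signals in mammals, rose 1.63-fold. Those without a call included mir-181, which tunes T cell receptor signalling in mouse (log2 0.00 ± 0.12), mir-221 (0.16 ± 0.13), let-7 (0.60 ± 0.20, edgeR adjusted p = 0.0889) and mir-92 (-0.31 ± 0.15).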

How the data were processed

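Per the labels' protocols, a TruSeq kit for small RNA was used on total RNA. The submitters' processing notes name BWA 0.7.12-r1039, SAMtools 1.3.1-9, Trimmomatic 0.36 and bcl2fastq 1.8.4; the build, annotation, counting tool and handling of reads with several matches were not given in the sources used here. The authors deposited raw counts, whole numbers per family, and reads shared by related families could shift between rows. Columns were matched to samples by title and grouped by the age label.

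In R 4.3.3, edgeR 4.0.16 (TMM, filterByExpr, quasi-likelihood test, two-sided, no covariate, Benjamini-Hochberg over 212 features, threshold 0.05) tested age. The filter left out 112 features with 0.00948% of the counts. The SE is the absolute log2 fold change over the square root of F, and 95% intervals used the fit's degrees of freedom. Log2 CPM used a prior count of 2, and pair ratios added 0.5 to each count. Intervals on counts cover counting error only, since no molecular identifiers are described. The fit was tested on simulated data, where changes near the size of those called here were often missed. A family without a call can therefore still have changed. Alternatives included DESeq2 1.42.0 and limma-voom (limma 3.58.1).

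The families, lists and tests were chosen with earlier results of these data known. The text names all 6 families, every erythrocyte and vessel family, the 6 called families of the wider list with the smallest p, and the 2 closest families of each of the 6. The families of the wider list without a call (mir-181, mir-221, let-7, mir-92), the seventh called family of that list (mir-124), the oligodendrocyte and neuron markers and the muscle, liver and gut sums are given beside that rule, the first 4 and mir-124 chosen after their values were seen. Same-numbered libraries deviated together from their age means (correlation over features 0.287 to 0.528), though what the number marks is not in the labels. All were above the limit of 0.1 for pairing, and 8 of 8 libraries were closest to their own number. Libraries of different numbers reached up to 0.234, so passing that limit does not by itself mark a pair. No 2 libraries of an age were near copies (chi-square per degree of freedom at least 131).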

Additional observations from a re-analysis of the deposited data

Results flagged for a closer look

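Among 14 groups of 4 libraries (the 6 families and their summed level at each age), 3 had a library whose gap to its nearest neighbour, as a share of the range, was above the critical value of Dixon's test at that group size; chance flags about 1 in 20 groups. For mir-21 at 26 weeks the share was 0.862, with a log2 CPM of 13.49 in library I against 14.07 to 14.16 in II to IV. The summed level at 26 weeks had 0.885, also taken on log2 values, with 12209 CPM in library I against 18053 to 18992 CPM. Since mir-21 makes up nearly all of the sum, this is the same value again. For mir-150 at 6 weeks the share was 0.841, with a log2 CPM of 5.48 in library I against 4.78 to 4.89. All 3 values belong to a library numbered I. Without the 6-week library I, the log2 fold change of mir-150 was 1.04 ± 0.21 (edgeR adjusted p = 0.0219), and without the 26-week library I that of mir-21 was 0.04 ± 0.11 (adjusted p = 0.857).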

How the results depend on the processing

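The count of 3 called families fell to 0 with total counts only, with the log2 total as a covariate and with that covariate and the block together (0 of 212 features called by edgeR in that last fit, 24 at an unadjusted p under 0.05). It ran from 2 to 3 when single libraries were left out, while 21 to 29 of 214 to 222 tested features rose and 2 to 18 fell. As a block, the library number gave 3 called families and changed no call of the 6 families or their direction (edgeR adjusted p = 0.0125 for mir-223, 0.0151 for mir-142 and 0.0170 for mir-150). The count was also 3 without both libraries numbered I. Pairs without overlap ran from 4 to 7 when single libraries were left out, and 5 pairs moved the same way in all 4 library numbers. The share over all pairs of tested features was not computed for these settings, so these counts are description only. The log2 ratio of the summed levels was -0.07, 0.44 without mir-21, and ran from -0.14 to 0.09 without single libraries. It was -0.24 with upper-quartile factors and -0.31 with total counts only. As a share of all counts the sum was 1.545 ± 0.128% at 26 weeks and 1.91 ± 0.138% at 6 weeks (SD, n = 4 per age). On that scale the ages did not overlap, and 13.7% of all tested features were likewise lower without overlap. The values of mir-21, mir-146 and mir-155 changed sign. That of mir-21 was 0.01 with no filter and ran from -0.16 to 0.07 without single libraries, but was -0.45 with the log2 total as a covariate, and that of mir-146 was 0.00 with TMM factors from all but the 5 most abundant families, 0.04 with no filter and -0.23 to 0.28 without single libraries. The value of mir-155 turned to -0.66 ± 0.74 with the covariate and block together, and mir-155 did not reach the minimum of 10 CPM in 4 libraries. Over 21 alternatives, mir-223 and mir-142 passed in 18 each and mir-150 in 14, and all 3 kept their direction in all 21. Depth limits mir-155 most. The cause of these changes was not tested.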
